A study of Mus musculus with 24 samples.

Results

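Complex I of the respiratory chain is built from nuclear-encoded Nduf subunits and 7 subunits read from mitochondrial DNA, and the Nduf genes were followed here through 24 mouse kidney RNA libraries. Members were the rows of the deposited gene table whose symbol starts with Nduf and has no hyphen, with pseudogenes left out. The table of 55416 genes held 49 such rows. Of these, 3 (Ndufa11b, Ndufb4c and Ndufs6b) are annotated as processed pseudogenes in GENCODE M21 and were set apart, which left 46 genes. They are 38 genes with a subunit symbol (Ndufa, Ndufb, Ndufc, Ndufs and Ndufv) and 8 with an assembly factor symbol (Ndufaf1 to Ndufaf8). For 2 of the 38 the symbol is older than the known role of the protein. Ndufa4 is a subunit of cytochrome c oxidase, and Ndufa4l2 is its hypoxia-inducible paralogue, so that 36 are subunits of complex I itself. The rule drops the 2 rows with a hyphen, Ndufab1-ps and Ndufb1-ps. RefSeq lists the second as the protein-coding gene Ndufb1, so the set may lack that distal arm subunit, whose values are given at the end. All 46 genes passed the filter on low values.

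Complex I takes electrons from NADH, passes them along a chain of iron-sulfur clusters to ubiquinone and pumps protons across the inner mitochondrial membrane. The N module binds NADH and the Q module reduces ubiquinone, and both sit on the matrix side, while the membrane arm does the pumping around its mitochondrially encoded core. Assembly factors bind partly built modules and leave before the enzyme is finished. Kidney tubule cells, above all those of the proximal tubule and the thick ascending limb, are dense in mitochondria and depend on this chain for salt and solute transport.

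The libraries form 4 groups of 6, which the labels call biological replicates. Sham Polg+/+ and Sham PolgD257A kidneys had sham surgery, and B-IRI Polg+/+ and B-IRI PolgD257A kidneys had the ischemia reperfusion injury that the labels abbreviate as B-IRI. PolgD257A is a change in the catalytic subunit of the mitochondrial DNA polymerase that removes its proofreading, so that mitochondrial DNA gathers point mutations, and Polg+/+ animals were littermates. The design asks how such mutations add to injury after ischemia reperfusion. As background, the allele is a germline knock-in and is carried by all cells of the animal. The sources used here do not give age, sex, strain, time after surgery or the number of PolgD257A copies per animal. The values are whole-kidney RNA levels and not protein or enzyme activity. The column names behind these groups read Ctrl, Mut and SurgBIR, and that these mean Polg+/+, PolgD257A and B-IRI is inferred. A point mutation leaves no mark on the level of the Polg transcript, so the genotype labels could not be checked from it.

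Libraries held 16689284 to 26341004 reads assigned to genes, and the values used are normalized counts, that is reads divided by 1 size factor per library. Kidney identity was clear, since the 12 proximal tubule markers alone took 1.82 to 2.16% of all normalized counts in Sham Polg+/+. A mean level was formed for each gene group in each library, as the mean over its genes of the log2 difference from the Sham Polg+/+ mean. In B-IRI PolgD257A, replicates 2 and 3 stood apart in the mean of the 36 subunits, at -0.188 and -0.262, while the other 4 libraries lay between -0.616 and -0.539. Replicates 2 and 3 were also the highest of the group in the 8 Nduf assembly factors, at -0.0662 and 0.0382 against -0.273 to -0.242. In the same libraries 82 ribosomal protein genes, a list chosen after their values were seen, stood at 0.667 and 0.609 against 0.257 to 0.433 in the other 4. Mean levels of injured tubule markers there were 5.62 and 5.26, in a group range of 5.19 to 5.88. Distal tubule and collecting duct markers were highest there, at -0.65 and -0.557 against -1.49 to -0.967 in the other 4. Thick ascending limb markers stood at -0.931 and -0.364 in a range of -1.39 to -0.364. Proximal tubule markers stood at -1.09 and -1.33 in a range of -1.52 to -1.05. Why these 2 libraries stood apart was not tested. In B-IRI Polg+/+, replicate 1 was the highest library in the 36 subunits, at -0.0117 against -0.22 to -0.135. In Sham PolgD257A, replicate 6 was the highest in the 36 subunits, at 0.337 against -0.112 to 0.114. It was also the highest in the 8 Nduf assembly factors, at 0.233 against -0.106 to 0.0679. A high sham library deepens the fall measured in PolgD257A and the interaction. This library was left out only singly, and counts without it lie within the ranges given for 1 library left out. Counts of genes called that rest on the B-IRI libraries named here are given with and without them. Replicates 2 and 3 of B-IRI PolgD257A were picked for their high subunit levels. Leaving them out deepens the fall in PolgD257A by that choice, so those counts are not separate support.

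**Figure D1:**
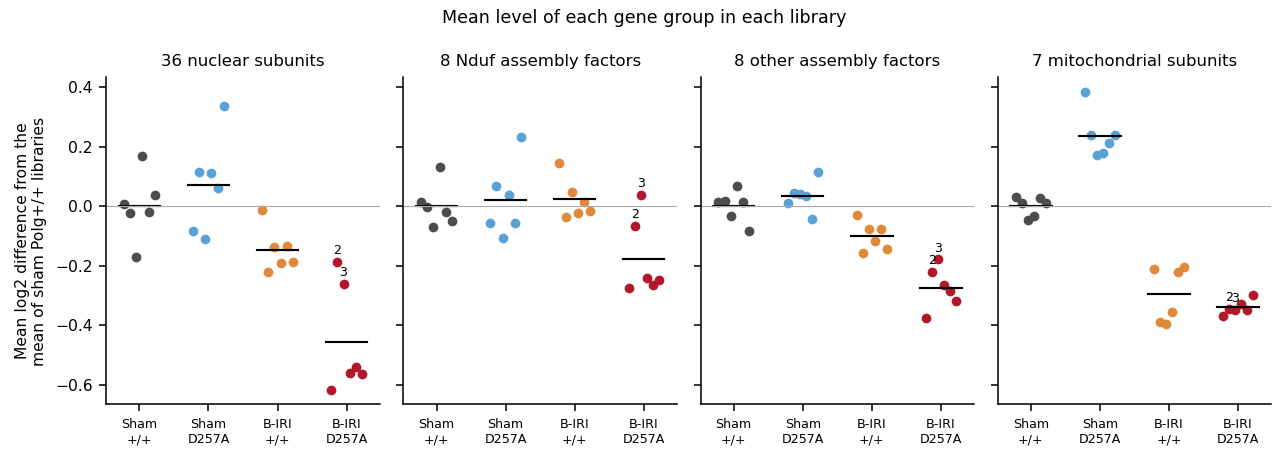
Mean level of each gene group in each library, as the mean log2 difference from the Sham Polg+/+ mean (vertical axis), for the 36 nuclear complex I subunits, the 8 Nduf assembly factors, 8 assembly factors with other names and the 7 mitochondrially encoded subunits. Points are libraries, lines are means of 6, and the numbers 2 and 3 mark the B-IRI PolgD257A replicates whose subunit level (-0.188 and -0.262) stood apart from the other 4.

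The 36 subunits were abundant transcripts and the assembly factors were scarce ones. Per kilobase of transcript, the median level of the subunits in Sham Polg+/+ was 4845 normalized counts, with a range from 247 ± 39.7 (SD, n = 6) for Ndufb2 to 14127 ± 1471 for Ndufa6. The median of the 8 assembly factors was 459.6, from 266 ± 9.59 for Ndufaf5 to 985 ± 63.3 for Ndufaf8. Ndufb2 was the one complex I subunit that did not lie above all assembly factors, and Ndufs4, the next lowest, stood at 1355 ± 101. Neighbours in this order could differ by less than their SD, as for Ndufb4 at 2611 ± 353 and Ndufs1 at 2692 ± 76, or Ndufa3 at 9881 ± 1092 and Ndufa1 at 10222 ± 1213. Ndufa4, the cytochrome c oxidase subunit, was the most abundant of the 46 at 25641 ± 2363, and its paralogue Ndufa4l2 the least abundant at 95.3 ± 22.9. Lengths are medians over the coding transcripts of GENCODE M21, and the isoform used in kidney was not measured.

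**Figure D2:**
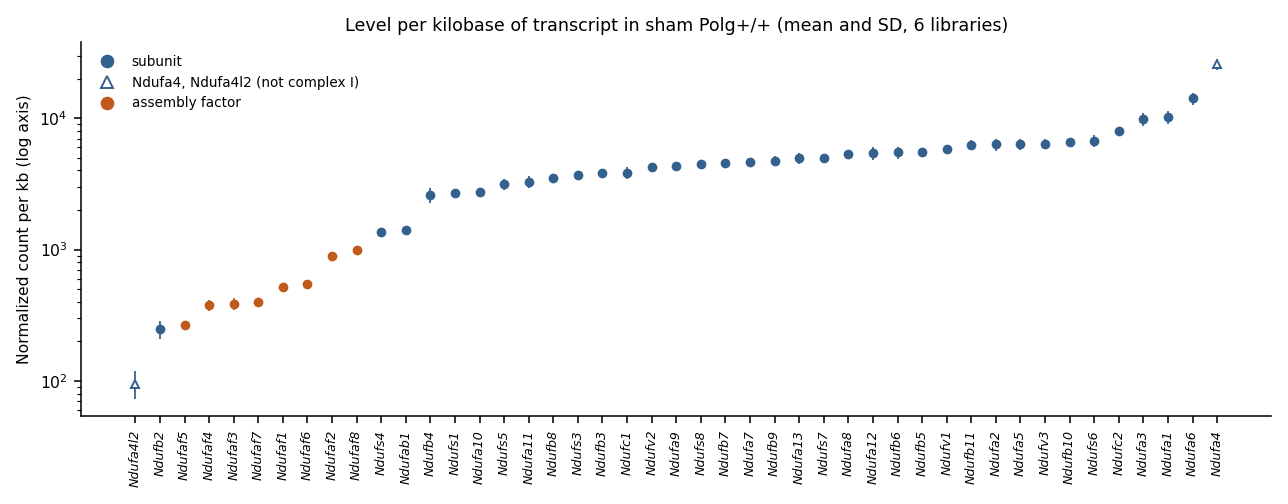
Normalized count per kilobase of transcript in Sham Polg+/+ (logarithmic vertical axis) for 45 of the genes in rising order, with points for means and bars for the SD of 6 libraries. Assembly factors lie between 266 and 985, and 34 of the 35 complex I subunits plotted lie above them.

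Together the 36 subunits took 0.692 ± 0.0418% of all normalized counts in Sham Polg+/+ (mean ± SD, n = 6), 0.707 ± 0.0644% in Sham PolgD257A, 0.659 ± 0.0224% after B-IRI in Polg+/+ and 0.557 ± 0.0615% after B-IRI in PolgD257A. The 8 assembly factors took 0.0251 ± 0.000954%, 0.0246 ± 0.00148%, 0.0267 ± 0.000871% and 0.0242 ± 0.00204% in the same order. The subunit share was thus lowest in the injured PolgD257A kidneys, although its range of 0.507 to 0.646% still met that of both sham groups.

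Injury in Polg+/+ kidneys was accompanied by a modest fall in some subunits and by no common direction among the assembly factors. Of the 38 subunit genes 13 were lower after B-IRI than after sham (34.2%) and 0 were higher, where 19.8% of all 17430 genes tested were called lower and 21.4% higher. None of the 38 was higher at an unadjusted p under 0.05 either, and edgeR and DESeq2 also called 0 higher. The median log2 fold change of the 38 was -0.15, beside -0.01 over all genes, and single values ran from -0.44 for Ndufv3 to 0.08 for Ndufa8. Among the 13 were Ndufs1, Ndufv1 and Ndufv3 of the N module, Ndufs3 and Ndufa9 of the Q module, Ndufa1, Ndufa10, Ndufa13 and Ndufc2 of the proximal arm, Ndufb5 and Ndufb11 of the distal arm, and Ndufa4. In 4 subunits, Ndufs1, Ndufv1, Ndufv3 and Ndufa10, all 6 injured libraries lay below all 6 sham libraries, as did 8.7% of all genes. Among the assembly factors 1 of 8 was lower and 1 higher, with a median of 0.02. Without replicate 1 of B-IRI Polg+/+ the count of lower subunits was again 13. It was 17 without replicates 2 and 3 of B-IRI PolgD257A, which enter this comparison through the shared estimate of the spread. In whole-kidney RNA a smaller share of cells of one type and less RNA per cell cannot be told apart.

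In PolgD257A kidneys the fall took in nearly the whole enzyme. After B-IRI 37 of the 38 subunit genes were lower than after sham (97.4%), where 30.3% of all genes were called lower, and 0 were higher, where 30.2% were called higher. The exception was Ndufa4l2, which is not a complex I subunit. No subunit was higher at an unadjusted p under 0.05, and edgeR and DESeq2 also called 0 higher. The median log2 fold change was -0.54, beside 0.00 over all genes, with values from -0.81 for Ndufv3 to -0.25 for Ndufb3 among the 36. For 19 of the 38 genes every injured library lay below every sham library, as for 17.5% of all genes, and 0 lay wholly above (18.8%). Of the assembly factors 5 of 8 were lower (62.5%) and 0 higher, with a median of -0.22. Without replicates 2 and 3 of B-IRI PolgD257A the counts were 37 of 38 subunits and 6 of 8 assembly factors.

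**Figure D3:**
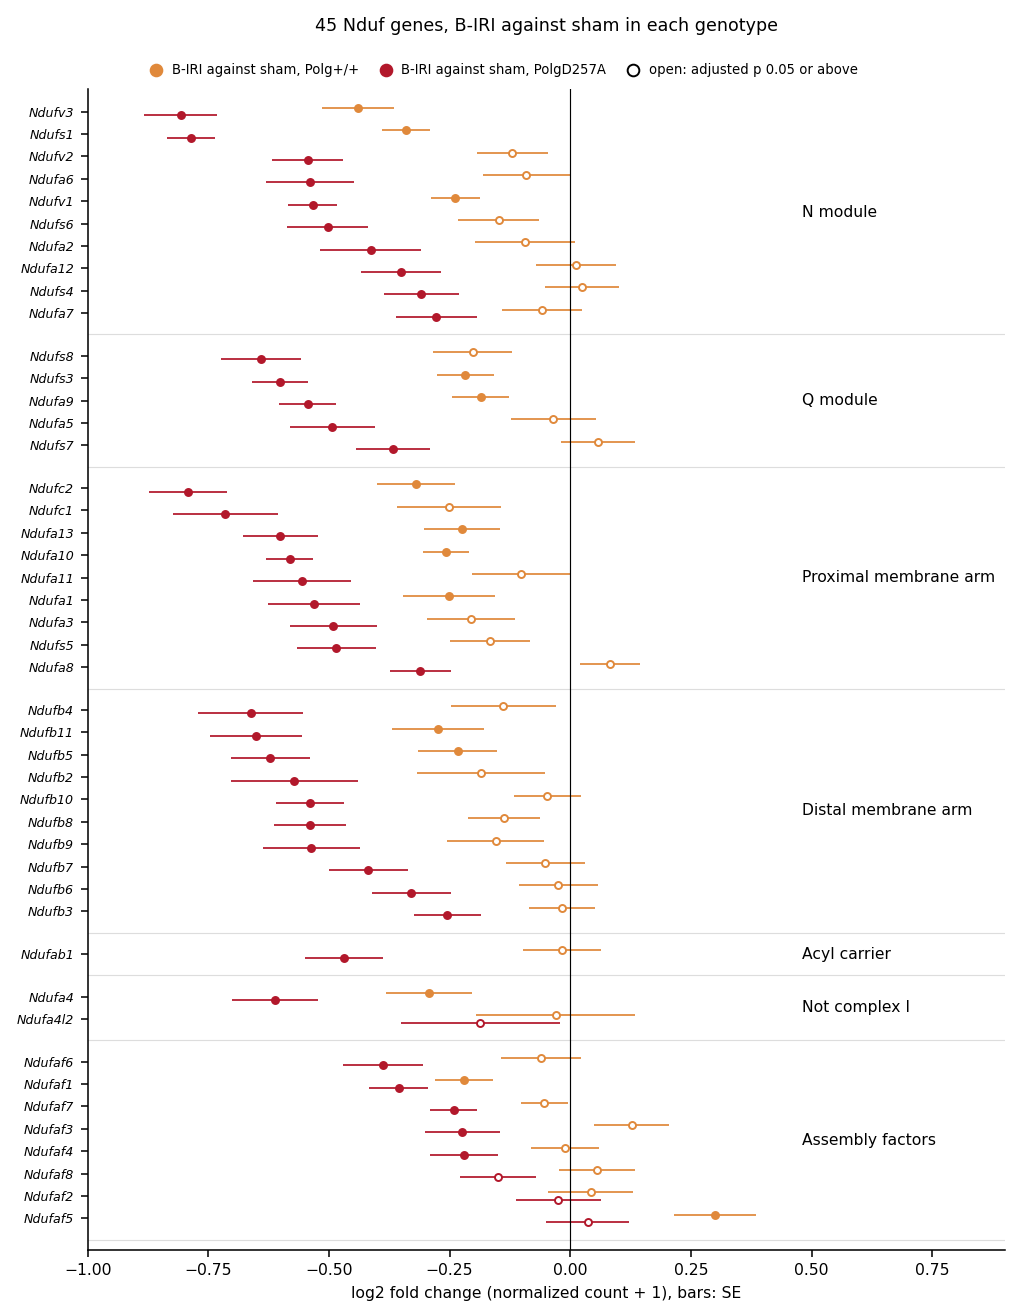
log2 fold change of B-IRI against sham (horizontal axis, bars show the SE) for 45 of the genes, grouped by module and ordered by the change in PolgD257A, with Polg+/+ in orange and PolgD257A in red. Filled points passed an adjusted p of 0.05. In PolgD257A 41 of the 45 points are filled, all on the left of 0, and in Polg+/+ 14 are filled.

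Module by module, each of the 36 complex I genes of the set fell in PolgD257A, and fewer passed the test in Polg+/+. The shares of all genes called lower, 30.3% in PolgD257A and 19.8% in Polg+/+, are the background to these counts. In the N module, the NADH-binding end, 10 of 10 genes fell in PolgD257A (median -0.52) and 3 of 10 in Polg+/+ (-0.11). The Q module gave 6 of 6 (-0.56) and 3 of 6 (-0.19). In the proximal membrane arm 9 of 9 fell in PolgD257A (-0.56) and 4 of 9 in Polg+/+ (-0.22), and in the distal arm 10 of 10 (-0.54) and 2 of 10 (-0.14). In Polg+/+ the distal arm was thus at the background, with 20% called, and the N module was near it, with 30%. Ndufab1, the acyl carrier protein present in both membrane arm and Q module, had log2 fold changes of -0.47 ± 0.08 (adjusted p = 1.7e-05) and -0.02 ± 0.08 (adjusted p = 0.89). The 7 nuclear core subunits, among them all carriers of the flavin and the iron-sulfur clusters, gave 7 of 7 and 4 of 7, with medians of -0.57 and -0.22. All genes of the 4 modules were again lower in PolgD257A without replicates 2 and 3 of B-IRI PolgD257A, and in Polg+/+ the counts of the N module, Q module, proximal and distal arm were 3, 4, 7 and 2. Without replicate 1 of B-IRI Polg+/+ they were 3, 3, 4 and 2. No module was compared with another by a test.

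Ndufs1, the largest core subunit and carrier of several iron-sulfur clusters of the N module (chr1:63143596-63176833, minus strand, GRCm38), had the smallest adjusted p of all members after B-IRI in each genotype, between the genotypes after B-IRI and in the interaction. Its normalized counts were 6831 to 7311 (median 7079.8) in Sham Polg+/+ and 6923 to 7809 (median 7409.8) in Sham PolgD257A. After B-IRI they were 5118 to 5975 (median 5588) in Polg+/+ and 3856 to 4654 (median 4217) in PolgD257A. The 3 levels, sham, injured Polg+/+ and injured PolgD257A, did not overlap. The log2 fold change after B-IRI was -0.34 ± 0.05 (adjusted p = 5.5e-06) in Polg+/+ and -0.79 ± 0.05 (adjusted p = 6.5e-13) in PolgD257A, where ± gives the limma SE. Replicates 2 and 3 of B-IRI PolgD257A were the highest of their group here too, at 4614 and 4654 against 3856 to 4309. Ndufs1 overlaps Eef1b2 on the opposite strand, and without strand-aware counting reads of the pair cannot be told apart.

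Ndufv1 holds the flavin and the NADH site. Sham libraries gave 8650.2 to 9478 (median 8888) in Polg+/+ and 8246 to 9756 (median 8984) in PolgD257A, and injured ones 7188 to 8486 (median 7342) and 5590.2 to 6617 (median 6307). Injured PolgD257A libraries thus lay below all others, with changes of -0.24 ± 0.05 (adjusted p = 0.00054) in Polg+/+ and -0.53 ± 0.05 (adjusted p = 1.3e-09) in PolgD257A. Ndufv3, an accessory subunit of the same module (chr17:31520115-31531331, plus strand), showed the deepest fall of the set. In Polg+/+ its counts were 3619 to 4643 (median 4016) after sham and 2811 to 3598 (median 2897) after B-IRI, a change of -0.44 ± 0.08 (adjusted p = 3.9e-05). In PolgD257A they were 3549.9 to 4779 (median 3989.9) and 1988 to 2588 (median 2256), a change of -0.81 ± 0.08 (adjusted p = 7.3e-10). Replicate 1 of B-IRI Polg+/+, at 3598, lay just under the lowest Sham Polg+/+ value.

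In the Q module Ndufs3, a core subunit that holds no cofactor (chr2:90894634-90904827, minus strand, opposite to Kbtbd4), had 3687 to 4202 (median 3841) in Sham Polg+/+ and 3807 to 4575 (median 3919.6) in Sham PolgD257A. After B-IRI the values were 3116 to 3797 (median 3264) in Polg+/+ and 2376 to 2909 (median 2662) in PolgD257A. The injured PolgD257A libraries lay below every other library, while 1 injured Polg+/+ library reached into the sham range. The changes were -0.22 ± 0.06 (adjusted p = 0.0044) in Polg+/+ and -0.60 ± 0.06 (adjusted p = 1.9e-09) in PolgD257A. Among the other members of this module the change in PolgD257A ran from -0.64 ± 0.08 for Ndufs8, which carries iron-sulfur clusters, to -0.37 ± 0.08 for Ndufs7, which carries the last cluster before ubiquinone. In Polg+/+ Ndufs7 gave 0.06 ± 0.08 (adjusted p = 0.58).

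Of the proximal membrane arm, Ndufa10, an accessory subunit with a nucleoside kinase fold (chr1:92439010-92473860, minus strand), had 5204 to 5820.4 (median 5589) in Sham Polg+/+ and 5458 to 5926 (median 5624) in Sham PolgD257A. B-IRI values were 4365 to 5119.8 (median 4508) in Polg+/+ and 3492 to 4081 (median 3746) in PolgD257A. As with Ndufs1 the sham, injured Polg+/+ and injured PolgD257A libraries formed 3 ranges without overlap. Changes were -0.26 ± 0.05 (adjusted p = 0.00012) in Polg+/+ and -0.58 ± 0.05 (adjusted p = 8.7e-11) in PolgD257A.

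Ndufc1 and Ndufc2 are small accessory membrane subunits of the same arm. Ndufc2 had 3974 to 5099.8 (median 4596) in Sham Polg+/+, 4316 to 6029.8 (median 4996) in Sham PolgD257A, 3533 to 4076 (median 3598) after B-IRI in Polg+/+ and 2541 to 3631 (median 2676) after B-IRI in PolgD257A. Its log2 fold changes were -0.32 ± 0.08 (adjusted p = 0.0025) in Polg+/+ and -0.79 ± 0.08 (adjusted p = 4.2e-09) in PolgD257A. Injured and sham ranges met in Polg+/+ and stayed apart in PolgD257A. For Ndufc1 the values were 2563 to 3373 (median 2945) and 2371 to 2755 (median 2507) in Polg+/+, a difference of -0.25 ± 0.11 (adjusted p = 0.066). In PolgD257A they were 2468 to 4058 (median 3359) and 1679.6 to 2669.5 (median 1735), a change of -0.71 ± 0.11 (adjusted p = 2.7e-06). Here the spread within B-IRI PolgD257A was wide, since replicates 2 and 3 had 2669.5 and 2261 and the other 4 libraries 1679.6 to 1746. The difference of Ndufc1 in Polg+/+ passed the threshold without those 2 libraries, at an adjusted p of 0.02.

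Ndufb10 faces the intermembrane space in the distal arm and was named for its small adjusted p in the interaction. It was not picked as typical of the arm, where the median change in Polg+/+ was -0.14. Its values were 4444 to 5293 (median 4803) in Sham Polg+/+, 4586 to 5806 (median 5108) in Sham PolgD257A, 4319 to 5477 (median 4606) after B-IRI in Polg+/+ and 3165 to 4144 (median 3382) after B-IRI in PolgD257A. The first 3 groups overlapped and the last lay below them all. In Polg+/+ the difference was -0.05 ± 0.07 (adjusted p = 0.62) and in PolgD257A the change was -0.54 ± 0.07 (adjusted p = 2.4e-07).

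Other members are given by their log2 fold change after B-IRI in PolgD257A, each of which passed the test. In the N module these were -0.54 ± 0.07 for Ndufv2, a core subunit with an iron-sulfur cluster, -0.54 ± 0.09 for Ndufa6, -0.50 ± 0.08 for Ndufs6, -0.41 ± 0.10 for Ndufa2, -0.35 ± 0.08 for Ndufa12, -0.31 ± 0.08 for Ndufs4 and -0.28 ± 0.08 for Ndufa7. Ndufs4 and Ndufs6 join late in assembly, and Ndufa12 takes the place that Ndufaf2 holds before. In the Q module they were -0.54 ± 0.06 for Ndufa9, which helps to lock the matrix arm to the membrane arm, and -0.49 ± 0.09 for Ndufa5. In the proximal membrane arm the values were -0.60 ± 0.08 for Ndufa13, also known as Grim19, -0.56 ± 0.10 for Ndufa11, -0.53 ± 0.10 for Ndufa1, -0.49 ± 0.09 for Ndufa3, -0.48 ± 0.08 for Ndufs5 and -0.31 ± 0.06 for Ndufa8. Ndufs5 and Ndufa8 lie on the intermembrane-space side and have folds held by disulfide bonds. In the distal arm they were -0.66 ± 0.11 for Ndufb4, -0.65 ± 0.10 for Ndufb11, -0.62 ± 0.08 for Ndufb5, -0.57 ± 0.13 for Ndufb2, -0.54 ± 0.07 for Ndufb8, -0.54 ± 0.10 for Ndufb9, -0.42 ± 0.08 for Ndufb7, -0.33 ± 0.08 for Ndufb6 and -0.25 ± 0.07 for Ndufb3. In Polg+/+ the members named in these sentences ran from -0.27 for Ndufb11 to 0.08 for Ndufa8.

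**Figure D4:**
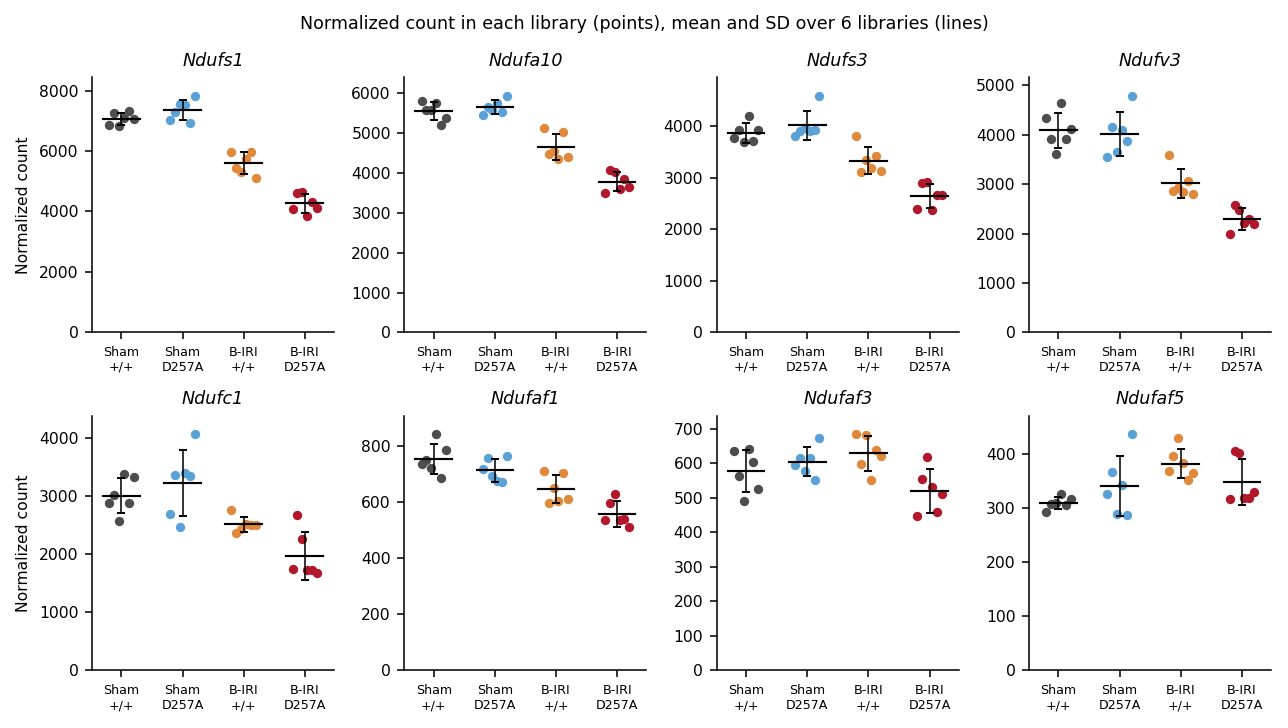
Normalized count in each of the 24 libraries (points) for 5 subunits and 3 assembly factors, with the mean and SD of each group of 6 as black lines and a vertical axis that starts at 0. Ndufs1 and Ndufa10 show 3 separate levels, and Ndufaf5 lies higher in all 6 injured Polg+/+ libraries (352 to 429.6) than in the sham ones (293 to 326).

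Among the assembly factors, Ndufaf1 works in the complex that builds part of the membrane arm, together with Acad9, Ecsit and Tmem126b. It had 687 to 841 (median 743) in Sham Polg+/+, 672 to 763 (median 706) in Sham PolgD257A, 598 to 711 (median 631) after B-IRI in Polg+/+ and 509.7 to 627 (median 538) after B-IRI in PolgD257A. It was the 1 Nduf assembly factor that fell in both genotypes, with log2 fold changes of -0.22 ± 0.06 (adjusted p = 0.0047) and -0.36 ± 0.06 (adjusted p = 1.4e-05). In PolgD257A the injured and sham ranges did not overlap.

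Ndufaf5 was the one member that rose. The enzyme modifies the Q module subunit Ndufs7 during assembly, and its gene (chr2:140170649-140203689, plus strand) gave 293 to 326 (median 309) in Sham Polg+/+ and 352 to 429.6 (median 376) in B-IRI Polg+/+. All 6 injured libraries were above all 6 sham libraries, a state shared by 11.5% of all genes, and the rise was 0.30 ± 0.09 (adjusted p = 0.0066). In PolgD257A the sham and injured values were 287 to 436 (median 334) and 317 to 406 (median 325), a difference of 0.04 ± 0.09 (adjusted p = 0.73), and the groups overlapped. Without replicates 2 and 3, which had 406 and 401, that difference was -0.07. The interaction, -0.26 ± 0.12 (adjusted p = 0.15), did not pass the test. Ndufaf8, the partner of Ndufaf5, had 543 to 641 (median 589) in Sham Polg+/+, 523 to 729 (median 593) in Sham PolgD257A, 569 to 674 (median 625) after B-IRI in Polg+/+ and 479.8 to 638 (median 523) after B-IRI in PolgD257A. Its groups overlapped, with 0.06 ± 0.08 (adjusted p = 0.6) and -0.15 ± 0.08 (adjusted p = 0.1), and the second value became -0.25 (adjusted p = 0.0081) without replicates 2 and 3.

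Ndufaf3 and Ndufaf4 act as a pair on the early Q module. Ndufaf3, which overlaps Impdh2 on the opposite strand, had 491 to 641 (median 583) in Sham Polg+/+ and 551 to 673 (median 605) in Sham PolgD257A. After B-IRI it had 550.3 to 683 (median 628) in Polg+/+ and 446 to 618 (median 521) in PolgD257A. All of these ranges overlapped, and the changes were 0.13 ± 0.08 (adjusted p = 0.2) and -0.22 ± 0.08 (adjusted p = 0.015). Ndufaf4 had 1178 to 1519.7 (median 1369) in Sham Polg+/+, 1221 to 1533 (median 1364) in Sham PolgD257A, 1253 to 1519.5 (median 1351) after B-IRI in Polg+/+ and 1054 to 1428 (median 1169) after B-IRI in PolgD257A. All ranges overlapped, that of B-IRI PolgD257A with the others through 1 library, replicate 3. Its changes were -0.01 ± 0.07 (adjusted p = 0.92) in Polg+/+ and -0.22 ± 0.07 (adjusted p = 0.009) in PolgD257A.

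Ndufaf6, needed early for the module around the mitochondrially encoded ND1, had 532 to 659 (median 591) and 500.5 to 746 (median 649) in the 2 sham groups, and 535 to 672 (median 556) and 425 to 557 (median 463) after B-IRI. Its fall in PolgD257A, -0.39 ± 0.08 (adjusted p = 0.00025), was the largest among the Nduf assembly factors, and in Polg+/+ the difference was -0.06 ± 0.08 (adjusted p = 0.6). Ndufaf7, a methyltransferase that acts during assembly, had 810.2 to 926 (median 900.4) and 832 to 954 (median 846) in sham, and 789 to 902 (median 869) and 708 to 802 (median 729) after B-IRI. In PolgD257A all injured libraries lay below all sham libraries (-0.24 ± 0.05, adjusted p = 0.00012), and in Polg+/+ the groups overlapped (-0.05 ± 0.05, adjusted p = 0.4). Ndufaf2, which holds the place of a subunit at the docking site of the N module, had 506 to 619.7 (median 545) and 440.3 to 662 (median 535) in sham, and 507 to 636 (median 556) and 453 to 625 (median 507) after B-IRI. All 4 of its ranges overlapped, and neither difference passed the test, at 0.04 ± 0.09 (adjusted p = 0.73) and -0.02 ± 0.09 (adjusted p = 0.83).

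Of the 2 genes outside complex I, Ndufa4 fell in both genotypes and Ndufa4l2 did not pass the test. Ndufa4 had 10096 to 13394 (median 11686) and 10247 to 15049 (median 12326) in the sham groups, and 9047 to 10436 (median 9552) and 6989 to 10021 (median 7450.4) after B-IRI, with changes of -0.29 ± 0.09 (adjusted p = 0.01) in Polg+/+ and -0.61 ± 0.09 (adjusted p = 1.5e-06) in PolgD257A. The call in Polg+/+ was lost with quantile normalization, at an adjusted p of 0.11. Injured PolgD257A libraries lay below the sham libraries of that genotype, and in Polg+/+ 1 injured library overlapped sham. Ndufa4l2, which overlaps Shmt2 on the opposite strand, stayed low throughout, at 61.5 to 119.7 (median 90.4), 74 to 116 (median 86.7), 63 to 108 (median 87.2) and 57.9 to 96.6 (median 83.7) in the 4 groups in the same order. Neither difference of Ndufa4l2 passed the test, at -0.03 ± 0.17 (adjusted p = 0.9) and -0.19 ± 0.17 (adjusted p = 0.34).

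Before injury the genotypes could not be separated in these genes. In sham kidneys 0 of the 46 members passed the test, where 0.0402% of all genes were called lower and 0.0861% higher. No member had an unadjusted p under 0.05, and edgeR and DESeq2 also called 0. The smallest adjusted p was 0.79. In no member did the sham groups lie wholly apart, where 0.252% of all genes lay wholly below and 0.379% wholly above. The median log2 difference of the 38 subunits, PolgD257A minus Polg+/+, was 0.07, with 37 of 38 values above 0 and a range from -0.03 to 0.15. The mean level of the 36 subunits ran from -0.172 to 0.167 in Sham Polg+/+ and from -0.112 to 0.337 in Sham PolgD257A, so that the groups overlapped widely. Ndufs1, for example, gave 0.06 ± 0.05 and Ndufaf1 -0.08 ± 0.06.

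After injury the genotypes differed in most subunits. Between B-IRI PolgD257A and B-IRI Polg+/+ 32 of 38 subunit genes were lower in PolgD257A (84.2%), where 15.2% of all genes were called lower, and 0 were higher, where 14.3% were called higher. At an unadjusted p under 0.05 the count of higher subunits was also 0, as it was with edgeR and DESeq2. The 6 that did not pass were Ndufa1, Ndufa2, Ndufa7, Ndufb3, Ndufb6 and Ndufa4l2. The median was -0.31, from -0.40 for Ndufb10 to -0.09 for Ndufa4l2, and 10 genes had all PolgD257A libraries below all Polg+/+ libraries (5.94% of all genes) and 0 had them all above (4.65%). Ndufs1 (-0.39 ± 0.05, adjusted p = 3.2e-06), Ndufa10 (-0.30 ± 0.05, adjusted p = 4.3e-05), Ndufs3 (-0.33 ± 0.06, adjusted p = 0.00013) and Ndufv3 (-0.40 ± 0.08, adjusted p = 0.00026) were among these 10. Of the assembly factors 5 of 8 were lower, with a median of -0.21. They were Ndufaf3 (-0.28 ± 0.08, adjusted p = 0.0076), Ndufaf6 (-0.25 ± 0.08, adjusted p = 0.024), Ndufaf1 (-0.21 ± 0.06, adjusted p = 0.0087), Ndufaf7 (-0.21 ± 0.05, adjusted p = 0.0015) and Ndufaf4 (-0.20 ± 0.07, adjusted p = 0.034). Without replicates 2 and 3 of B-IRI PolgD257A, 36 of 38 subunits and 7 of 8 assembly factors were lower, and without replicate 1 of B-IRI Polg+/+ 29 subunits were. The 5 assembly factors became 3 when replicate 1 of B-IRI Polg+/+ or replicate 1 of B-IRI PolgD257A was left out, and 4 without replicate 3, 4 or 5 of B-IRI Polg+/+ or replicate 4 or 5 of B-IRI PolgD257A. The call of Ndufaf4 was lost in 8 of 24 fits that left out 1 library and with no filter on low values (adjusted p = 0.064). The authors' deposited table of selected genes for this comparison lists no Nduf gene, and its smallest absolute log2 fold change is 0.50.

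The test of the difference itself, the surgery by genotype interaction, was passed by 26 of the 38 subunit genes (68.4%), all with a deeper fall in PolgD257A, where 9.08% of all genes were called lower and 6.87% higher. None was called higher by limma, edgeR or DESeq2, and limma gave 0 at an unadjusted p under 0.05. The median interaction was -0.38, from -0.52 for Ndufb4 to -0.16 for Ndufa4l2. The smallest adjusted p-values belonged to Ndufs1 (-0.45 ± 0.07, adjusted p = 0.00023), Ndufb10 (-0.49 ± 0.10, adjusted p = 0.0016), Ndufa10 (-0.32 ± 0.07, adjusted p = 0.0022) and Ndufs3 (-0.38 ± 0.08, adjusted p = 0.0028). Ndufc2 (-0.47 ± 0.11, adjusted p = 0.0064), Ndufv1 (-0.30 ± 0.07, adjusted p = 0.0068) and Ndufv3 (-0.37 ± 0.11, adjusted p = 0.019) passed as well. Ndufc1 passed at -0.46 ± 0.15 (adjusted p = 0.039) and lost the call with no filter (adjusted p = 0.074), with quantile normalization (0.078), with the replicate number as a block (0.053) and in 15 of 24 fits that left out 1 library. All 7 core subunits and all 6 Q module genes passed, and 8 of 10 in the N module, 6 of 9 in the proximal and 5 of 10 in the distal arm. Those that did not were Ndufa2 and Ndufa7, Ndufa1, Ndufa3 and Ndufs5, Ndufb2, Ndufb3, Ndufb6, Ndufb9 and Ndufb11, and outside complex I Ndufa4 and Ndufa4l2. Without replicates 2 and 3 of B-IRI PolgD257A 36 of 38 passed, a count partly set by picking these libraries for their high subunit levels. Without replicate 1 of B-IRI Polg+/+ 20 passed, among them all 6 of the Q module, 5 of the N module, 4 of the proximal and 4 of the distal arm. The injury and genotype comparisons share groups with the interaction, so they are not separate pieces of evidence.

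For the assembly factors the number of calls moved with those libraries. Among the 8 Ndufaf3 alone passed, at -0.35 ± 0.11 (adjusted p = 0.03), and the median was -0.21. This share of 12.5% is near the 9.08% of all genes called lower, and the call of Ndufaf3 was lost with no filter (adjusted p = 0.055) and with the replicate number as a block (0.058). All 8 values were below 0, and 5 had an unadjusted p under 0.05. Without replicates 2 and 3 of B-IRI PolgD257A 6 of 8 passed, and leaving out single libraries gave 0 to 4, with 0 without replicate 1 of B-IRI Polg+/+ or replicate 1 of B-IRI PolgD257A, or without replicate 3 or 6 of Sham Polg+/+ or 6 of Sham PolgD257A. The 4 came without replicate 3 of B-IRI PolgD257A, and 2 passed without its replicate 2, without replicate 4 of Sham Polg+/+, without replicate 1 or 3 of Sham PolgD257A or without replicate 6 of B-IRI Polg+/+. The mean level of subunits minus that of assembly factors, taken within each library, was -0.101 to 0.0895 in Sham Polg+/+ and -0.0281 to 0.12 in Sham PolgD257A. It was -0.185 to -0.149 after B-IRI in Polg+/+ and -0.342 to -0.122 after B-IRI in PolgD257A, where replicate 2 gave the value nearest 0. Within libraries the subunits thus stood below the assembly factors in all 12 injured kidneys, measured against sham, and replicates 2 and 3 were raised in both classes.

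**Figure D5:**
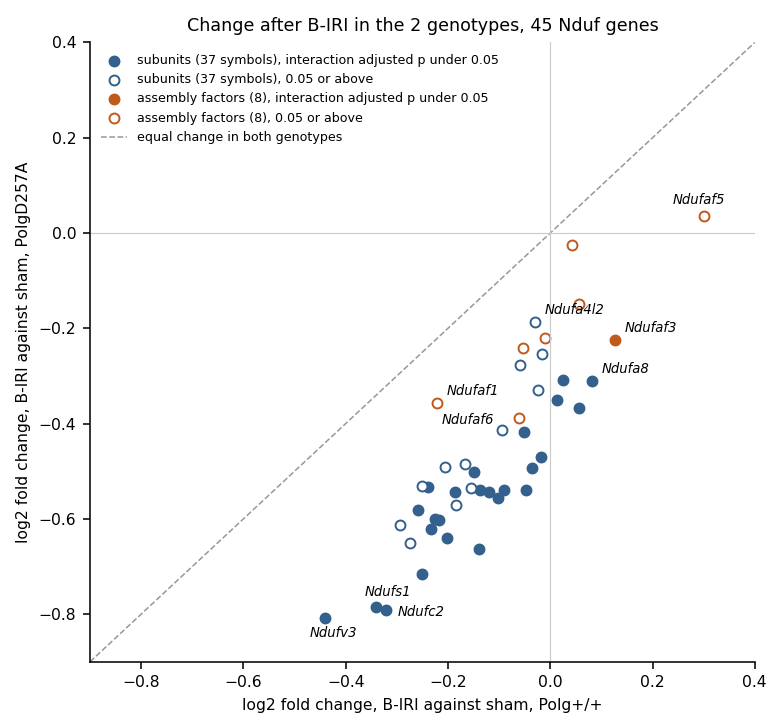
log2 fold change of B-IRI against sham in Polg+/+ (horizontal) and in PolgD257A (vertical) for 45 of the genes, with filled points where the interaction passed an adjusted p of 0.05 and a dashed line of equal change. All 45 points lie below the line, 26 of them filled, and Ndufaf5 is the one point above 0 on the vertical axis.

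The promoters of the set were searched for 5 short motifs of factors known from mitochondrial genes. RefSeq promoter windows on GRCm38.p6, which run from 250 bases before to 50 bases after a gene's start, were found for 40 of the 46 genes (33 subunits with 35 windows and 7 assembly factors with 7). The YY1 core AAGATGGC, searched on both strands, was in 7 of 35 subunit windows (20%) and 1 of 7 assembly factor windows, and in 2.75% of all 32851 windows. In all 8 it lay on the gene's own strand in the 50 bases after the start, as it does in 31.5% of all windows that hold it. In 7 of the 8, all but Ndufaf8, the ATG within the motif is the start codon annotated in GENCODE M21. The stretches are printed 5′ to 3′ with the motif in capitals, because their place next to the start is shared by genes from all arms of the enzyme:
Ndufs4 (chr13:114388045-114388074, minus strand): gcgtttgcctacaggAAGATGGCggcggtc
Ndufs6 (chr13:73328433-73328462, minus strand): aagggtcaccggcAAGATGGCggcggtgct
Ndufs7 (chr10:80249462-80249491, plus strand): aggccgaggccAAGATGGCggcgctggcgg
Ndufa9 (chr6:126849097-126849126, minus strand): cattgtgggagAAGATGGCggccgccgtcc
Ndufa3 (chr7:3617384-3617413, plus strand): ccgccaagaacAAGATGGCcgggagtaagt
Ndufc1 (chr3:51408915-51408944, minus strand): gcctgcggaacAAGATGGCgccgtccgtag
Ndufb8 (chr19:44555393-44555422, minus strand): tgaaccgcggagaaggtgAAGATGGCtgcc
Ndufaf8 (chr11:120098933-120098962, plus strand): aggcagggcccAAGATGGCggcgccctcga

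The 7 subunits with these letters had a median log2 fold change of -0.50 after B-IRI in PolgD257A, and the 25 other complex I subunits with a window had -0.54. In Polg+/+ the medians were -0.15 and -0.14. The difference between subunits with and without these letters was not tested. A match describes the sequence and is not a bound site. The NRF1 core CGCATGCG was in 2 of 35 subunit windows and 2 of 7 assembly factor windows (1.87% of all windows), the ETS core CCGGAAG in 4 and 2 (8.86%), and the ERR half-site AAGGTCA in 3 and 0 (4.72%). The CREB site TGACGTCA was in 3 and 0 (1.79%). These motifs were searched on both strands and their matches were not tested for overlap with one another. The CREB site lies in the windows of Ndufa10, Ndufa11 and Ndufb2, and the NRF1 core in those of Ndufa8, Ndufa11, Ndufaf4 and Ndufaf5. Whether either motif goes with a change after B-IRI was not tested. The CREB site is shown for Ndufa10 and the NRF1 core for Ndufaf5 and Ndufaf4:
Ndufa10 (chr1:92473807-92473836, minus strand): acactcagtggTGACGTCAtggcagcgcgc
Ndufaf5 (chr2:140170652-140170681, plus strand): agtcccgttggCGCATGCGcctaatagaaa
Ndufaf4 (chr4:24897960-24897989, plus strand): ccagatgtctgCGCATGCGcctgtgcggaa

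Assembly factors with other names fell in part. The 8 tested were Acad9, Ecsit, Tmem126b, Timmdc1, Foxred1, Nubpl, Tmem70 and Tmem186. After B-IRI 4 were lower and 1 higher in Polg+/+, and 6 were lower and 0 higher in PolgD257A, with medians of -0.12 and -0.29. Among all genes 19.8% were called lower and 21.4% higher in Polg+/+, and 30.3% and 30.2% in PolgD257A. Acad9, an acyl-CoA dehydrogenase relative that works with Ndufaf1, fell most, with log2 fold changes of -0.41 ± 0.06 (adjusted p = 1.1e-05) in Polg+/+ and -0.79 ± 0.06 (adjusted p = 3.8e-11) in PolgD257A. Its normalized counts were 1615 to 2216 (median 2128) and 2066 to 2399 (median 2135) in the sham groups, and 1446 to 1607 (median 1555) and 1153 to 1416 (median 1254) after B-IRI. Timmdc1, a membrane arm assembly factor, was the one that rose in Polg+/+, with 0.21 ± 0.06 (adjusted p = 0.0043). The interaction passed for 5 of the 8, where 9.08% of all genes were called lower. It passed for 5 also without replicates 2 and 3 of B-IRI PolgD257A and for 4 without replicate 1 of B-IRI Polg+/+. The counts after B-IRI in each genotype were the same without these libraries.

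The 7 subunits encoded by mitochondrial DNA kept another order. They took 4.2 ± 0.12% of all normalized counts in Sham Polg+/+ and 4.75 ± 0.181% in Sham PolgD257A, and 3.74 ± 0.167% and 3.63 ± 0.101% after B-IRI. After B-IRI 6 of 7 were lower in Polg+/+ (median -0.28) and 7 of 7 in PolgD257A (-0.58), beside 19.8% and 30.3% of all genes. In sham kidneys their median was 0.25 in PolgD257A relative to Polg+/+, with 0 called by limma and 5 at an unadjusted p under 0.05. For 3 of the 7 all Sham PolgD257A libraries lay above all Sham Polg+/+ libraries, as for 0.379% of all genes. The mean level of the 7 did not overlap between the sham groups, at -0.0471 to 0.0319 in Polg+/+ and 0.173 to 0.382 in PolgD257A. After injury 0 differed between genotypes, with 1 at an unadjusted p under 0.05 and a median of -0.06. The interaction was passed by 1 (14.3%), near the 9.08% of all genes called lower. That call was lost without replicates 2 and 3 of B-IRI PolgD257A or without replicate 1 of B-IRI Polg+/+. mt-Nd4, a proton-pumping subunit of the distal arm, had 141200 to 167110 normalized counts in Sham Polg+/+ and 156290 to 188110 in Sham PolgD257A, and 109730 to 132530 and 96302 to 105850 after B-IRI. It was not typical of the 7. Its falls after B-IRI, -0.41 in Polg+/+ and -0.69 in PolgD257A, were the deepest. Between genotypes it had the lowest value of the 7 in sham, at 0.07, and after B-IRI, at -0.21. Replicates 2 and 3 of B-IRI PolgD257A did not stand apart in these genes, at -0.345 and -0.348 in a group range of -0.37 to -0.297.

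Nuclear genes of complexes II to IV fell in PolgD257A as well. Of 23 listed, 9 fell after B-IRI in Polg+/+ and 23 in PolgD257A, where 19.8% and 30.3% of all genes were called lower. After B-IRI 20 were lower in PolgD257A than in Polg+/+ (15.2% of all genes), and 13 passed the interaction (9.08%). The medians were -0.20, -0.54, -0.30 and -0.36 in the same order. The largest fall was that of Sdhb, the iron-sulfur subunit of complex II, at -0.80 ± 0.07 (adjusted p = 6.9e-10) in PolgD257A. Replicates 2 and 3 of B-IRI PolgD257A stood apart in this list too, at mean levels of -0.165 and -0.267 against -0.609 to -0.57 in the other 4. Without them 14 fell in Polg+/+ and 23 in PolgD257A, 23 differed between the genotypes and 23 passed the interaction. Without replicate 1 of B-IRI Polg+/+ the counts were 10, 23, 16 and 10. The fall was thus not limited to complex I.

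Regulators of mitochondrial genes were measured beside their possible targets. Of 10 listed, 3 were lower and 1 higher after B-IRI in Polg+/+, and 7 lower and 1 higher in PolgD257A. The log2 fold changes ran from -0.30 for Esrrb to 0.15 for Gabpb1 in Polg+/+. In PolgD257A they ran from -0.96 for Esrrb to 0.34 for Gabpb1. The PolgD257A counts were 6 lower and 1 higher without replicates 2 and 3 of B-IRI PolgD257A. Among all genes 19.8% were called lower and 21.4% higher in Polg+/+, and 30.3% and 30.2% in PolgD257A. Esrra, a nuclear receptor of oxidative genes, had log2 fold changes of 0.00 ± 0.06 (adjusted p = 0.99) in Polg+/+ and -0.60 ± 0.06 (adjusted p = 3e-09) in PolgD257A, with an interaction of -0.60 ± 0.09 (adjusted p = 9.7e-05). Ppargc1a, the coactivator PGC-1alpha, gave -0.09 ± 0.08 (adjusted p = 0.44) and -0.54 ± 0.08 (adjusted p = 4.9e-06). Tfam, which packs mitochondrial DNA and helps to start its transcription, fell in both, with -0.17 ± 0.05 (adjusted p = 0.013) and -0.41 ± 0.05 (adjusted p = 2.1e-07). Nrf1 and Yy1 did not pass in either genotype, with 0.09 ± 0.06 (adjusted p = 0.17) and -0.03 ± 0.05 (adjusted p = 0.57) in PolgD257A. Whether any of these bears on the Nduf genes was not tested.

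Cell type markers moved in the same comparisons. The background is 19.8% of all genes called lower and 21.4% higher in Polg+/+, and 30.3% and 30.2% in PolgD257A. Of 12 proximal tubule markers 9 fell after B-IRI in Polg+/+ and 12 in PolgD257A, and their summed level went from 1.82 to 2.16% of all normalized counts in Sham Polg+/+ and 1.95 to 2.18% in Sham PolgD257A to 1.23 to 1.56% and 0.754 to 1%. Of 6 thick ascending limb markers 1 fell (16.7%, near the share of all genes) and 1 rose in Polg+/+, and 5 fell in PolgD257A. Their summed levels were 0.48 to 0.577%, 0.416 to 0.591%, 0.533 to 0.668% and 0.345 to 0.592% in the same order of groups. Of 10 distal tubule and collecting duct markers 5 fell in Polg+/+ and 7 in PolgD257A, at 0.243 to 0.325%, 0.22 to 0.266%, 0.215 to 0.262% and 0.138 to 0.2%. The medians of the 3 lists in PolgD257A were -1.04, -0.74 and -0.61, where that of the subunits was -0.54. In the interaction 9 of 12, 6 of 6 and 4 of 10 markers of these lists were called lower and 0 higher. Among all genes 9.08% were called lower and 6.87% higher there. The interaction medians were -0.66, -0.66 and -0.38, where the subunits had 26 of 38 called and a median of -0.38. The counts of lower markers in PolgD257A were 12, 6 and 7 without replicates 2 and 3 of B-IRI PolgD257A, and 3 thick ascending limb markers fell in Polg+/+. Without replicate 1 of B-IRI Polg+/+ the counts in Polg+/+ were 8, 2 and 4.

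Of the remaining lists, injured tubule rose as a whole. Fibroblast genes lay above sham apart from Dcn, with medians of 0.85 in Polg+/+ and 1.59 in PolgD257A. The leukocyte, podocyte and endothelial lists had no common direction after B-IRI. The background is 21.4% of all genes called higher and 19.8% lower in Polg+/+, and 30.2% and 30.3% in PolgD257A. All 5 injured tubule genes were higher in both genotypes, and their summed level was 0.00155 to 0.00226%, 0.00187 to 0.00251%, 0.0317 to 0.147% and 0.166 to 0.261% of all normalized counts. Fibroblast genes were higher for 4 of 6 in Polg+/+ and 5 of 6 in PolgD257A, with 1 lower in each, at 0.0137 to 0.0183%, 0.0121 to 0.0162%, 0.0224 to 0.0516% and 0.0466 to 0.0774%. Leukocyte genes were higher for 4 of 10 and lower for 1 in each, with summed levels of 0.00754 to 0.00949%, 0.00714 to 0.00851%, 0.00597 to 0.0081% and 0.00702 to 0.00871%. Podocyte genes were higher for 1 of 5 and 2 of 5 (0.0184 to 0.0254%, 0.0172 to 0.0257%, 0.0222 to 0.0276% and 0.0264 to 0.0316%), and endothelial genes for 0 of 5 and 2 of 5 with 1 lower in each (0.0152 to 0.0227%, 0.0165 to 0.0222%, 0.0132 to 0.0222% and 0.0198 to 0.0259%). Between the genotypes after B-IRI, 10 of 12 proximal tubule, 6 of 6 thick ascending limb and 8 of 10 distal tubule and collecting duct markers were lower in PolgD257A. Higher were 4 of 5 injured tubule, 5 of 6 fibroblast, 3 of 5 endothelial and 1 of 5 podocyte genes. Among all genes 15.2% were called lower and 14.3% higher in this comparison. Of the 10 leukocyte genes 5 were higher and 2 lower, and 2 were higher and 2 lower without replicate 1 of B-IRI Polg+/+. The same comparison without replicates 2 and 3 of B-IRI PolgD257A gave 10, 6 and 8 lower tubule markers and 4, 5, 2 and 1 higher genes in these lists, with 4 leukocyte genes higher and 2 lower. After B-IRI in Polg+/+, leaving out replicate 1 gave 2 higher podocyte genes and ended the call of the 1 lower endothelial gene, and leaving out replicates 2 and 3 of B-IRI PolgD257A gave 2 lower leukocyte genes. No marker of any list was at 0 in a library. The part of these shifts in the fall of the Nduf genes was not tested.

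Within injured kidneys the depth of injury was set beside the 3 marker genes of the set through Havcr1, which encodes the tubule injury protein KIM-1. Havcr1 had 5441 to 24888 normalized counts after B-IRI in Polg+/+ and 25923 to 36062 after B-IRI in PolgD257A, against 112 to 180.1 and 143 to 198 in sham. In B-IRI Polg+/+ Ndufs1 was lower where Havcr1 was higher (r = -0.846, rho = -0.886, n = 6), with exact two-sided permutation p-values of 0.0486 and 0.0333. After adjustment over the 6 relations computed these were 0.292 and 0.20, and neither passed. Without the 2 libraries farthest from the median of Havcr1 r was -0.952 with n = 4, where the exact permutation p was 0.0833. For Ndufa10 and Ndufs3 r was -0.512 and -0.698 (rho = -0.429 and -0.771, exact permutation p = 0.281 and 0.11 for r, 0.419 and 0.103 for rho, adjusted 0.561 and 0.329 for r, 0.714 and 0.308 for rho). In B-IRI PolgD257A r was 0.0492 for Ndufs1, 0.0112 for Ndufa10 and -0.146 for Ndufs3 (exact permutation p = 0.933, 0.978 and 0.71, each 0.978 after adjustment). The rho values there were -0.257, -0.257 and -0.20 (exact permutation p = 0.658, 0.658 and 0.714, each 0.714 after adjustment).

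The 3 pseudogenes set apart could take reads from their parent genes, Ndufa11, Ndufb4 and Ndufs6, if reads map to both. Their levels were small, with medians in Sham Polg+/+ of 2.35 for Ndufa11b, 95.7 for Ndufb4c and 30.6 for Ndufs6b, beside 1792, 2576 and 3765 for the parents. Of the 46 genes 18 overlap another gene on the opposite strand in GENCODE M21. The sources used here do not say whether counting used the strand, so the values of these 18 are less certain. Of the 2 hyphenated rows, Ndufb1-ps had 1086 to 2108 (median 1621) in Sham PolgD257A and 871 to 1797 (median 1026) in B-IRI PolgD257A (-0.45 ± 0.15, adjusted p = 0.012).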

How the data were processed

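Kidney RNA from 24 mice was extracted with RNeasy kits and made into libraries with a NEBNext Ultra II kit, per the labels' protocols. The submitters' processing notes name the build GRCm38.p6 and the tools FastQC, STAR, SAMtools, featureCounts and DESeq2. The deposited signal values are gene counts that the authors scaled with a size factor for each library. Undoing this scaling returned whole numbers (100% of values, tolerance 0.001), which served as reads for the depth, edgeR and DESeq2. A second table deposited by the authors (1401 genes of 1 comparison) holds a mean signal, a log2 fold change and an s-value, a p-value-like measure.

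All 24 libraries entered 1 limma-trend model (limma 3.58.1 in R 4.3.3) with a mean per group, fitted to log2 of the normalized count plus 1. It held the 17430 genes that reached 10 normalized counts in 6 or more libraries, with Benjamini-Hochberg adjustment over all genes for each of 5 contrasts and a threshold of 0.05. The pseudocount understates changes of low genes. Depth was 16689284 to 26341004 reads per library. The fit was tested on simulated data. The members and lists, and the rule for named genes, were chosen with earlier results of these data known. Named genes are the 3 markers, the 4 subunits with the smallest adjusted p and the 4 with the largest fall after B-IRI in PolgD257A, the 4 members with the smallest adjusted p in the interaction, all 8 assembly factors, any member that passed the threshold against the majority of its class, Ndufa4 and Ndufa4l2, and other members are given in ranges or lists. Alternatives were another pseudocount, other filters and normalizations, edgeR 4.0.16, DESeq2 1.42.0, library weights, a threshold of 0.01, a replicate block and each library left out in turn. Leaving out 2 libraries together, and recounting the lists without these or without replicate 1 of B-IRI Polg+/+, was chosen after seeing the data. The 2 libraries were picked by their subunit levels. Same-numbered libraries were not paired in the main model. Their deviations from the group means had correlations from -0.326 to 0.174 over 36 pairs, which cannot exclude a pairing by number. Tables and figures used Python 3.11.15 with NumPy 2.4.6, pandas 2.3.3, SciPy 1.17.1 and Matplotlib 3.10.9. Symbols were found for 52083 of the 55416 gene IDs of the deposited table. Coordinates are those of GENCODE M21 on GRCm38, whose release differs from the annotation of the deposited table. The values of 1 member enter the counts and medians and are not reported here.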

Additional observations from a re-analysis of the deposited data

Results flagged for a closer look

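Of 84 groups of 6 values examined, 8 held a library farther from the others than Dixon's limit, where chance gives about 1 in 20 groups. Replicate 1 of B-IRI Polg+/+ was high in 4 of them, with 3598 normalized counts for Ndufv3 (others 2811 to 3068), 4076 for Ndufc2 (3533 to 3633), 672 for Ndufaf6 (535 to 564) and 5477 for Ndufb10 (4319 to 4721). Ndufs3 was high in replicate 6 of Sham PolgD257A, at 4575 (3807 to 3953). Ndufaf4 was high in replicate 3 of B-IRI PolgD257A, at 1428 (1054 to 1176). Ndufaf7 was low in replicate 3 of Sham Polg+/+, at 810.2 (889 to 926). The mean level of subunits minus assembly factors in replicate 2 of B-IRI PolgD257A was -0.12, and the other 5 libraries lay between -0.34 and -0.27.

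The change after B-IRI differed between the genotypes by the interaction test in 9 of the 18 genes described in full. Some of the 18 were named for a small adjusted p in this test or a deep fall in PolgD257A. The count and its direction are thus partly set by that choice. Among all genes 9.08% were called lower in the interaction and 6.87% higher. On the log2 scale the differences, PolgD257A minus Polg+/+, were -0.45 for Ndufs1, -0.32 for Ndufa10, -0.38 for Ndufs3, -0.37 for Ndufv3, -0.30 for Ndufv1, -0.47 for Ndufc2, -0.46 for Ndufc1, -0.35 for Ndufaf3 and -0.49 for Ndufb10. All 9 were negative. With a single library left out, Ndufc1 missed the threshold in 15 of 24 cases and Ndufaf3 in 5 of 24.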

How the results depend on the processing

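The median of all genes moved by at most 0.0114 (log2) in any alternative setting, filters included. For the 18 genes described in full, 2607 values under alternatives kept direction and side of the threshold, 44 lost and 18 gained the threshold, and 19 turned sign. Counts of subunits called with 1 library left out were 9 to 17 after B-IRI in Polg+/+, 37 in PolgD257A throughout, 26 to 35 between genotypes after B-IRI and 20 to 32 in the interaction. At a threshold of 0.01 the counts were 7 subunits in Polg+/+, 3 assembly factors between genotypes after B-IRI, and 12 subunits and 0 assembly factors in the interaction. The interaction in assembly factors (1 called) gave 0 with no filter, 3 with a filter of 50 normalized counts, 2 with quantile normalization, 3 with library weights, 2 with edgeR, 3 with DESeq2, 6 without replicates 2 and 3 of B-IRI PolgD257A (chosen after seeing the data), and 0 to 4 with 1 library left out. Between genotypes after B-IRI, 3 to 6 assembly factors were called with 1 library left out. The cause of these moves was not tested.

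With the replicate number as a block 13, 37, 31 and 20 subunits and, in the interaction, 0 assembly factors were called. Over the 36 pairs of same-numbered libraries from 2 groups, the second library was the best match of the first within its group in 4. Signs turned in differences that did not pass the test: Ndufb10 in Polg+/+ at 0.0049 with quantile normalization, Ndufaf5 in PolgD257A at -0.0415 with quantile normalization, -0.0732 without replicates 2 and 3, and -0.01004 to 0.11 with 1 library left out, and Ndufa4l2 in Polg+/+ at 0.0649 with library weights. With 1 library left out Ndufa4l2 gave -0.13 to 0.0615 in Polg+/+ and -0.18 to 0.00077 between genotypes after B-IRI, Ndufaf2 in PolgD257A -0.0794 to 0.0382, and Ndufaf4 in Polg+/+ -0.0524 to 0.021. The median of subunits in PolgD257A was -0.40 with quantile normalization. Without the 2 libraries farthest in Havcr1, r was -0.943 for Ndufa10 in B-IRI Polg+/+ (exact permutation p = 0.042, n = 4, unadjusted). That is the smallest p this permutation can give with 4 libraries, and with 6 libraries it was 0.281. In B-IRI PolgD257A r was then -0.277 for Ndufs1 and -0.394 for Ndufa10.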
